A study of Mus musculus with 8 samples.

Results

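Signals of 10 genes of EF-hand calcium-binding proteins were read in the cochlea of CBA/CaJ, an inbred mouse strain. The genes were 7 of the S100 family (S100b, S100a1, S100a4, S100a6, S100a10, S100a11 and S100a13) and the genes of 3 calcium buffers, calbindin (Calb1), calretinin (Calb2) and parvalbumin (Pvalb). A member was taken as every probe set that named that gene alone on the array, and 9 of the 10 genes had such a probe set, among 18193 genes in all. The single probe set of S100a11 named several genes, so S100a11 was not analysed here beyond its sequence. The study held 8 mice in 1 group of normal cochleas, with the ears of each animal pooled on 1 Affymetrix Mouse Genome 430 2.0 array, and no treatment, genotype or time was compared. The animals received a lethal dose of urethane (300 mg/kg) and were perfused with saline, so every sample shared that agent. The sample was the soft tissue inside the bony shell, that is spiral ligament, organ of Corti and modiolus together. The labels gave neither age nor sex.

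An EF hand is a helix, a loop that holds a calcium ion, and a second helix. S100 proteins are small EF-hand proteins that mostly act as dimers. In most of them, though not in all, a surface that grips partner proteins opens when calcium binds. Calbindin, calretinin and parvalbumin are known mainly as buffers that bind calcium that enters a cell. In the inner ear calretinin and parvalbumin are known from spiral ganglion neurons, the neurons whose bodies lie in the modiolus and which carry the signal of the hair cells to the brain, and all 3 buffers are known from hair cells. S100b is best known from glia, including Schwann cells, and S100 proteins are also known from fibrocytes and supporting cells of the cochlea.

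Promoter sequences are shown first because the S100 members have neighbouring genes, and a shared start region can be read directly. Of the S100 members 6 lay on chromosome 3, and S100b lay on chromosome 10. RefSeq promoter windows of mouse build GRCm38.p6, from 250 bases before to 50 bases after a gene's start site, were matched for S100a1, S100a4, S100a6, S100a11, S100a13, S100b and Pvalb. S100a1 and S100a13 stood head to head on opposite strands with start sites 105 bases apart, so that their windows, chr3:90514281-90514580 (minus strand) and chr3:90514185-90514484 (plus strand), shared 204 bases. The window of S100a13 is printed on the plus strand, 5′ to 3′, with the shared stretch, chr3:90514281-90514484, in capitals.
S100a13: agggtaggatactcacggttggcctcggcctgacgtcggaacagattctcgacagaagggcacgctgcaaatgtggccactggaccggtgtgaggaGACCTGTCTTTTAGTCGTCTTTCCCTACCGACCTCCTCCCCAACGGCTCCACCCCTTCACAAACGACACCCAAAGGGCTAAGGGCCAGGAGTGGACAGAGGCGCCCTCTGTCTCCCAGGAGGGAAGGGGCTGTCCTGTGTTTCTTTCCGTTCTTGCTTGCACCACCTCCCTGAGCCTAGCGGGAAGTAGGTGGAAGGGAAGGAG

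The windows were searched on both strands for TATAAA (the letters of a TATA box), CCAAT and GGGCGG, none of which contains another. TATAAA was found in the window of S100a4 and in no other of the members' windows, while 13.6% of all 32851 RefSeq windows held it. CCAAT was found at 2 places in the window of S100b and at 1 place in that of S100a6, against 37.4% of all windows with at least 1. GGGCGG was found at 3 places in the window of S100a11, against 35.7% of all windows. Pvalb had 2 start regions in the table, with 5 and 25 CpG dinucleotides, and the median window held 7. The windows of S100a4 (chr3:90603520-90603819, plus strand) and S100b (chr10:76253586-76253885, plus strand) are shown with these motifs in capitals, TATAAA in the first and CCAAT or its reverse complement ATTGG in the second. TATAAA in S100a4 began 31 bases before the start site. A match of letters is a description of the sequence and was not tested for binding.
S100a4: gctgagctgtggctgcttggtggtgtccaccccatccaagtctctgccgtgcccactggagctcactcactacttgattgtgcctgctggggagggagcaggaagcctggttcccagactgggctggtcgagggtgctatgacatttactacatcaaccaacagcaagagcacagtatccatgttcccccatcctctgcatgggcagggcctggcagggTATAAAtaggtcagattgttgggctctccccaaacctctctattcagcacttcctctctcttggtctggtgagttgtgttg
S100b: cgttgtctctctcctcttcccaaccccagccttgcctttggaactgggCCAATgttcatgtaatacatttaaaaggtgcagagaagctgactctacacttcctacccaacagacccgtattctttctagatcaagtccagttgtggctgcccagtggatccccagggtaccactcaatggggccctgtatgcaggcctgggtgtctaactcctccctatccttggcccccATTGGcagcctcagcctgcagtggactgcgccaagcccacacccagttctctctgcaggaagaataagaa

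The arrays resembled one another, with Pearson correlations of log2 signals between 0.95 and 0.96 across genes. No pair of arrays held identical values. By the rule given next, 10 of 10 measured marker genes of spiral ligament fibrocytes, 10 of 11 of supporting cells and 8 of 13 of hair cells were detected, against 60.6% of all genes. The hair cell share was near that of all genes, and the hair cell genes Pou4f3 and Cdh23 passed on no array. Each signal is an intensity on arrays that the authors scaled to 1 trimmed mean, and since probe sets differ in how well they bind, their signals give no order of RNA amounts between genes. A signal was called above background when it passed the 95th percentile over a set of 150 probe sets. These were of smell and pheromone receptors and of genes typical of other organs. The threshold lay between 48.3 and 91.1 on the 8 arrays. It was 48.3 to 64.8 in mice 1, 2, 7 and 8 and 83.1 to 91.1 in mice 3 to 6. A gene was called detected when its brightest probe set passed on all 8 arrays. Ratios of 3′ to 5′ control probe sets were 1.39 to 1.54 for Gapdh and 1.86 to 2.23 for actin, and mouse 6 was the lowest on both. Replicates were separate mice, with 1 array each, so variation between mice and variation between assays cannot be told apart.

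All 9 measured members were detected, against 60.6% of the 18193 genes. Of their 16 probe sets 12 passed on all 8 arrays and 4 passed on none. Those 4 were 1439348_at of S100a10, with signals of 5.1 to 18.1, and 1448738_at, 1456934_at and 1458836_at of Calb1, with signals of 1.2 to 27.9 over the 3. Calb1 was therefore read by 1 of its 4 probe sets. What sets its other 3 probe sets apart was not tested.

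**Figure D1:**
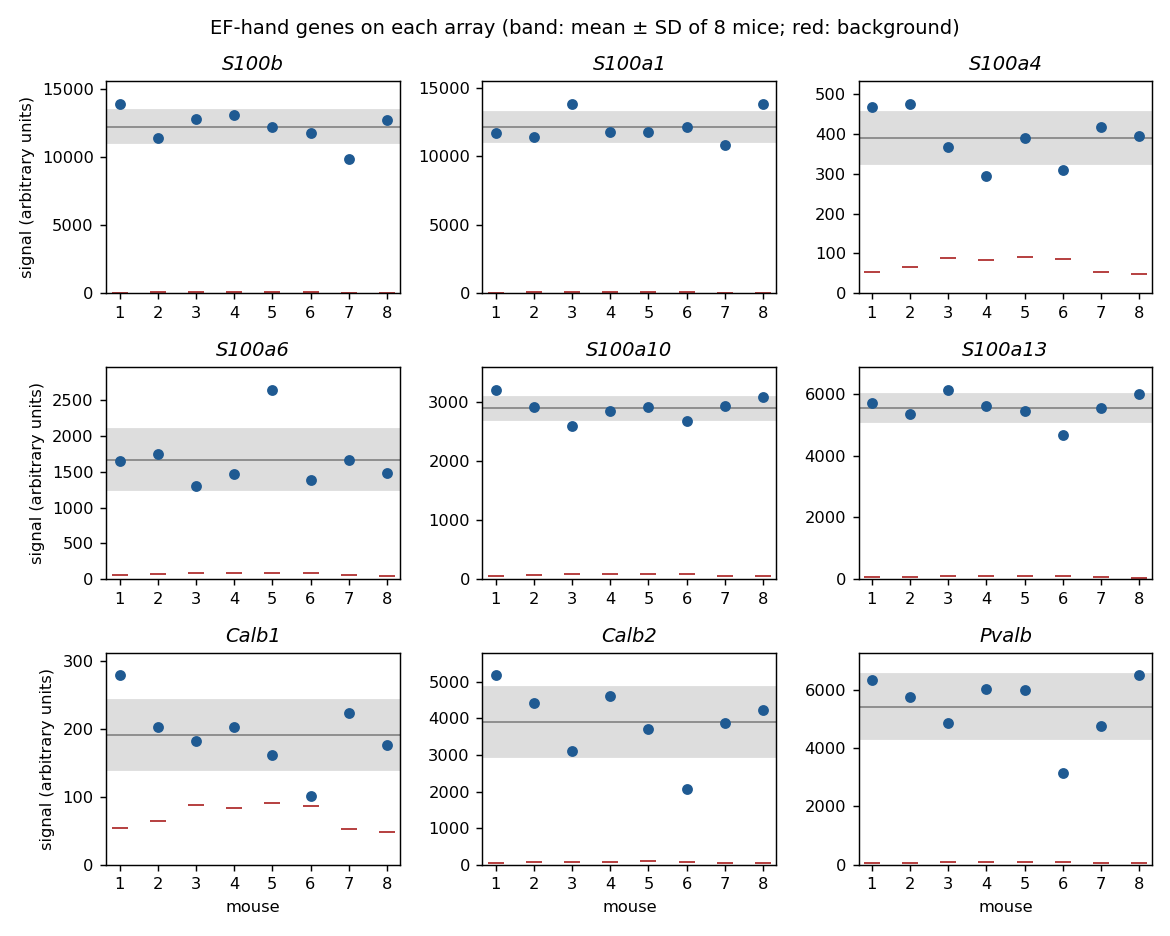
Signals of the 9 detected members in each of 8 mice, 1 point for each mouse, with the mean marked. Calb1, Calb2 and Pvalb sit lowest in mouse 6, and S100a6 sits highest in mouse 5.

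The SD of the members across mice on the log2 scale ran from 0.10 for S100a10 to 0.42 for Calb1, with a median of 0.25 over the members and 0.18 over all detected genes. Of the 9 members 5 (Calb1, Calb2, Pvalb, S100a6 and S100a4) exceeded the median SD of detected genes, a share near the 50% of all detected genes. The other members were S100b, S100a1, S100a13 and S100a10. Of the detected genes 13.1% had an SD at or below that of S100a10.

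**Figure D2:**
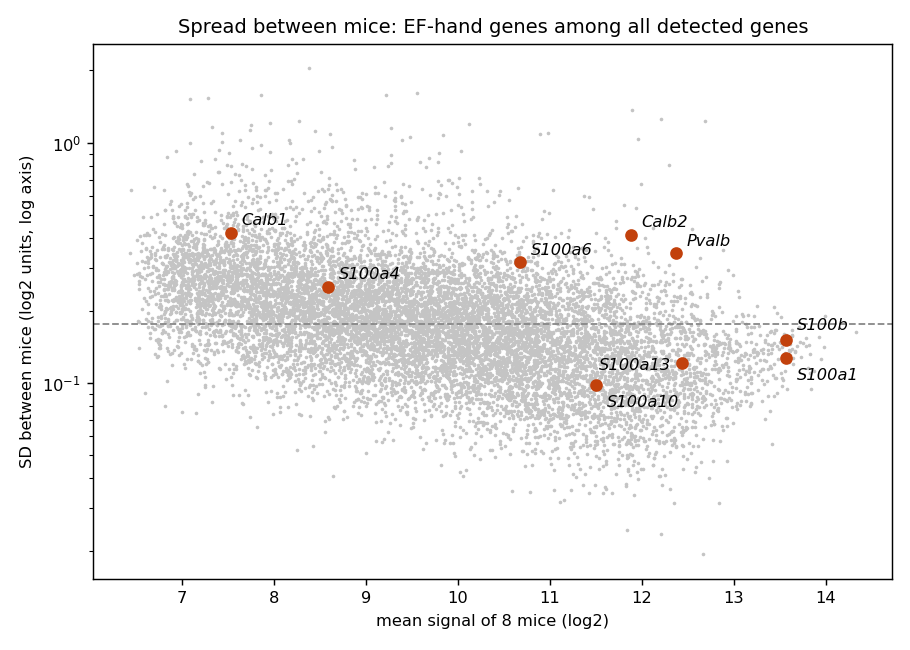
SD of log2 signal over 8 mice (vertical axis) for each member beside the distribution over all detected genes. Calb1 at 0.42 and Calb2 at 0.41 lie near the top of the detected genes, whose median is 0.18, and S100a10 at 0.10 lies near the bottom.

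The 3 buffers had the largest SDs of the members over all 8 mice and shared 1 low animal. Calretinin (Calb2, 1451129_at) had signals of 5177, 4408, 3104, 4611, 3700.2, 2071, 3878 and 4225 in mice 1 to 8, a mean of 3897 ± 965 (SD, n = 8). Mouse 6 was the lowest and mouse 1 the highest, and the remaining 6 mice lay between 3104 and 4611. Parvalbumin (Pvalb, 1417653_at) had signals of 6319.7, 5748, 4859, 6009, 5978, 3142, 4743 and 6490.2 in the same order, a mean of 5411 ± 1114 (SD, n = 8). Mouse 6 again stood apart at the low end, and the next mouse above it, mouse 7, was at 4743. Calbindin (Calb1, 1417504_at), a buffer of many neurons and sensory cells, was dim: its lowest signal was 102 in mouse 6, its median 193 and its highest 279 in mouse 1. The background threshold of mouse 6 was 86.5, so the lowest calbindin signal stood only just above it.

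Set against the mean of the other 7 mice on the log2 scale, mouse 6 was 1.98-fold lower for Calb1, 1.98-fold lower for Calb2 and 1.81-fold lower for Pvalb. S100a13 was also lowest in mouse 6, by 1.22-fold. Of the 9 members 4 were therefore lowest in that animal, against 12.2% of detected genes. S100b and S100a1 differed by -0.05 and 0.01 on the log2 scale between mouse 6 and the mean of the others. Without mouse 6 the SD of log2 signal was 0.26 for Calb1, 0.24 for Calb2, 0.18 for Pvalb and 0.07 for S100a13, and the largest among the members was then 0.33, of S100a6. At the high end, 4 of the 9 members (S100b, S100a10, Calb1 and Calb2) peaked in mouse 1, an animal in which 34.4% of detected genes peaked.

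Markers of spiral ganglion neurons were low in the same animal. Of 16 neuron genes 14 were detected, and 13 of these 14 were lowest in mouse 6, among them Snap25, a membrane protein of transmitter release (4960.5 in mouse 6, 7257 to 9451 in the others), and Eno2, a neuronal glycolytic enzyme (4402 against 5983 to 7864). The summed signal of the 16 genes was 18476 in mouse 6, below the 29362 to 44645 of the remaining 7 animals. A neuron score was formed as the mean log2 deviation of the 14 detected genes from their own means, and it was 0.57, 0.20, -0.21, 0.33, 0.09, -1.001, -0.10 and 0.12 in mice 1 to 8. Fewer neurons and less RNA in each neuron cannot be told apart in a tissue sample of this kind, nor can the share of modiolus that was collected.

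**Figure D3:**
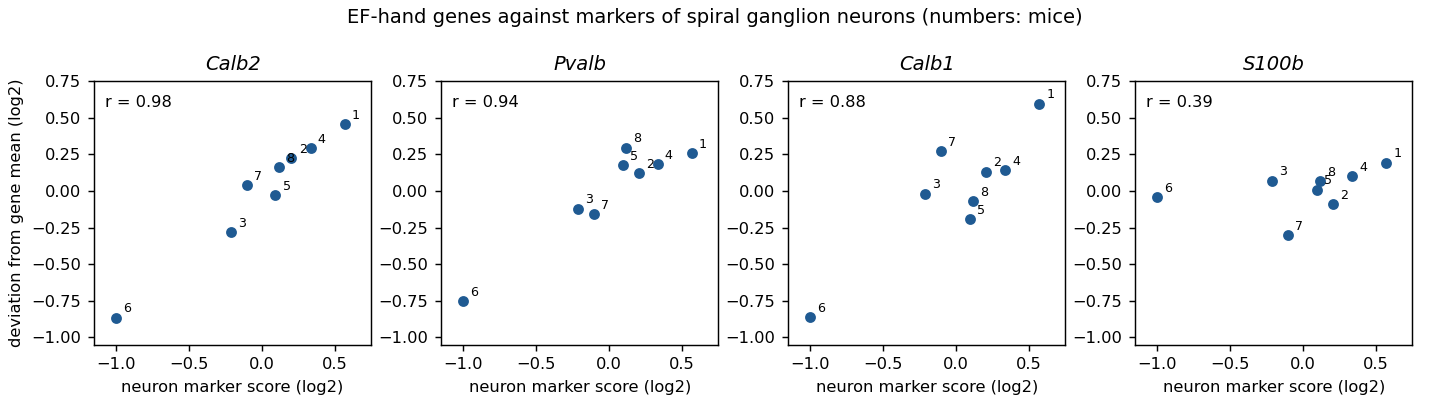
Members, among them Calb1, Calb2 and Pvalb, on the log2 scale (vertical axes) against the neuron score (horizontal axis, mean log2 deviation of neuron markers), 1 point for each mouse. Mouse 6 lies at a score of -1.001 and at the lowest signal of Calb1, Calb2 and Pvalb, and for Calb2 the other mice also follow the score.

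Calretinin tracked the neuron score most closely. The genes and lists were chosen with the low neuronal signals of 1 mouse already known. The unadjusted p values of the buffers, here and below, are therefore descriptive only. The Pearson correlation of Calb2 with the score over 8 mice was 0.98 (exact permutation p = 0.000174, adjusted p = 0.284), Spearman's rho was 0.98 (exact permutation p = 0.000397), and r was 0.89 without mice 1 and 6. The adjustment ran over 121231 pairs of a detected gene and a marker score, of which 0% passed an adjusted 0.05, and the lowest exact p that 8 mice allow was 2.48e-05. Of all detected genes 0.109% had an r with the score at least as high as that of Calb2. Pvalb had r = 0.94 (exact permutation p = 0.00236, adjusted p = 0.352) and rho = 0.79 (exact permutation p = 0.0279), and r was 0.79 without mice 1 and 6. Calb1 had r = 0.88 (exact permutation p = 0.0106, adjusted p = 0.468) and rho = 0.64 (exact permutation p = 0.0962), and r was 0.03 without mice 1 and 6, so its relation rested on those 2 animals. When only mouse 6 was left out, r with the score was 0.93 for Calb2 (exact permutation p = 0.00377), 0.77 for Pvalb (exact permutation p = 0.0440) and 0.59 for Calb1 (exact permutation p = 0.159). Subtracting the score from the log2 signals lowered the SD from 0.41 to 0.10 for Calb2, from 0.35 to 0.18 for Pvalb and from 0.42 to 0.23 for Calb1.

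The 3 genes most like each buffer across mice were taken from all detected genes by Pearson r. For Calb2 they were Gng3, a G-protein gamma subunit of neurons (r = 0.99, signals 842 to 3267), Map1a, a microtubule-associated protein and 1 of the neuron markers (r = 0.99, 311 to 1343), and Syp, the synaptic vesicle protein synaptophysin (r = 0.99, 262 to 1192). Of the 14 detected neuron markers 11 had an r of at least 0.9 with Calb2, a level that 1.19% of all detected genes reached. For Pvalb the nearest were Rbm8a, a protein of the exon junction complex (r = 0.97), Efr3a (r = 0.97) and the neuron marker Snap25 (r = 0.97). For Calb1 they were Ripor1, Coprs and Ccdc9 (r = 0.97, 0.96 and 0.96), none of them on the neuron list. These r values are over 8 mice and describe likeness only.

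The 3 buffers also varied with one another. Calb2 and Pvalb had r = 0.92 (exact permutation p = 0.00714, adjusted p = 0.604) and rho = 0.71 (exact permutation p = 0.0576), with r = 0.48 without mice 3 and 6. Calb1 and Calb2 had r = 0.90 (exact permutation p = 0.00538, adjusted p = 0.586) and rho = 0.76 (exact permutation p = 0.0368), with r = 0.36 without mice 1 and 6. Calb1 and Pvalb had r = 0.73 (exact permutation p = 0.0686, adjusted p = 0.758) and rho = 0.26 (exact permutation p = 0.537), and the sign turned to r = -0.49 without mice 1 and 6. All 3 relations leaned on mouse 6: without that animal alone r was 0.69 for Calb2 with Pvalb (exact permutation p = 0.0944), 0.66 for Calb1 with Calb2 (exact permutation p = 0.104) and 0.03 for Calb1 with Pvalb (exact permutation p = 0.955).

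Markers of other tissues that could carry these buffers were set beside them. Hair cell markers, of which 8 of 13 were detected, had a summed signal of 7035 in mouse 6, inside the range of 6317 to 7512 over the 8 mice. Myo6 alone gave 4440.5 of the sum in mouse 6, so the sum says little of the dimmer markers. Of the 8 detected markers 0 were lowest in mouse 6. The hair cell score had r = 0.19 with Calb1, 0.17 with Calb2 and -0.02 with Pvalb (exact permutation p = 0.654, 0.694 and 0.973, adjusted p = 0.979, 0.982 and 0.998; rho = 0.36, 0.26 and -0.14, exact permutation p = 0.389, 0.536 and 0.752). Without mice 1 and 5, the 2 farthest from the median of that score, r was 0.85, 0.85 and 0.65, so the weak pooled values depended on those animals. Schwann cell and myelin markers summed to 29190 in mouse 6, within the 26063 to 32330 of all mice. Much of that sum was Mbp, at 9488 and 9287 in mice 1 and 6 and at most 7971 in the others. Pmp22, the other bright gene of the list, was lowest in mouse 6 (6453 against 7129 to 9086). It was the only 1 of the 8 detected genes of that list that was lowest there. The 12 markers of the central nervous system, 5 of them detected, summed to more in mice 1 and 6 (8234 and 8129) than in the other 6 mice (3884 to 4676). The glial gene Mobp, a myelin protein of the brain, was 2331 and 2262 in mice 1 and 6 and at most 201 in the others. Pcp2, a marker of Purkinje cells, which hold calbindin and parvalbumin, was 998 and 1011 in mice 1 and 6 and 985 to 1153 over all 8 mice. Mouse 1 was the highest of all for Calb1 and Calb2 and the next to highest for Pvalb, and mouse 6 the lowest for all 3. Fast skeletal muscle is the other classical source of parvalbumin: 12 of 14 muscle markers were highest in mouse 5, where their sum was 15966 against 1107 to 2571 in the other mice, while Pvalb in mouse 5 was 5978, within the range of the other animals. The part of these tissues in the buffers' signals was not tested.

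Bone markers ran against calretinin. The bone score of 8 genes, among them Dmp1 of osteocytes and the collagen gene Col1a1, was high in mice 3, 5 and 6. Its r with Calb2 was -0.75 (exact permutation p = 0.0192, adjusted p = 0.544; rho = -0.64, exact permutation p = 0.0962), and -0.86 without mice 3 and 5. Its r with S100a10 was -0.81 (exact permutation p = 0.0137, adjusted p = 0.499; rho = -0.71, exact permutation p = 0.0576), and -0.91 without mice 3 and 5. The second detected probe set of S100a10 had r = -0.14 with the bone score (exact permutation p = 0.727). Its rho was -0.10 (exact permutation p = 0.840), and r was -0.37 without mice 3 and 5. The mean of all probe sets of S100a10, including 1439348_at, which passed the background on no array, had r = -0.17. The cartilage score, whose brightest genes were Cnmd and Sox9, had r = 0.71 with Calb1 (exact permutation p = 0.0396, adjusted p = 0.650). Its rho with Calb1 was 0.74 (exact permutation p = 0.0458), and r was 0.59 without mice 1 and 2. With Calb2 r was 0.71 too (exact permutation p = 0.0437, adjusted p = 0.669). There rho was 0.88 (exact permutation p = 0.00724), and r was 0.64 without mice 1 and 2. The 7 genes of the score differed in their own r with Calb2. It was 0.89 for Hapln1, 0.68 for Col11a2, 0.21 for Cnmd, 0.15 for Col2a1, 0.10 for Sox9, -0.38 for Acan and -0.40 for Col9a1. An r with the cartilage score at least as high as that of Calb2 was found in 18.3% of detected genes. Whether bone or cartilage in the dissection bears on these members was not tested.

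In all, 99 relations between the 9 members and 11 marker scores were computed. None passed an adjusted 0.05, and 10 had an unadjusted exact permutation p under 0.05, against 7.21% of all pairs of a detected gene and a score. The neuron score gave 4 of these 10, for Calb2, Pvalb, Calb1 and S100a10 (r = 0.72, exact permutation p = 0.0418, adjusted p = 0.661; rho = 0.57, exact permutation p = 0.151; r = 0.50 without mice 1 and 6). The second detected probe set of S100a10 had r = -0.03 with the neuron score (exact permutation p = 0.937). Its rho was -0.29 (exact permutation p = 0.501), and r was -0.11 without mice 1 and 6. The mean of all probe sets of S100a10, including 1439348_at below background, had r = 0.24. Of all detected genes 8.67% of detected genes reached an unadjusted 0.05 with that score.

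The glial member S100b was bright, and its highest and lowest animals differed by 1.41-fold. Its probe set 1419383_at had a lowest signal of 9860.4 in mouse 7, a median of 12472 and a highest of 13892 in mouse 1, with a mean of 12211 ± 1220.0 (SD, n = 8). The other 6 mice lay between 11409.7 and 13041. A second probe set, 1434342_at, ran from 10229 in mouse 1 to 13519.8 in mouse 3, with a mean of 11823 ± 1113 (SD, n = 8). The animal highest on the first probe set was thus lowest on the second. Their correlation was r = 0.15 (one-sided exact permutation p = 0.366, adjusted p = 0.577; rho = 0.10, exact permutation p = 0.420), and 0.72 without mice 1 and 7.

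A relation of S100b with Schwann cell markers was not detectable with 8 mice. Its r with that score was 0.25 (exact permutation p = 0.530, adjusted p = 0.965; rho = 0.36, exact permutation p = 0.389; r = 0.61 without mice 3 and 4), and its sign was negative, -0.18, without mouse 1. With the score of the central nervous system r was 0.48 (exact permutation p = 0.224, adjusted p = 0.891) and rho 0.50 (exact permutation p = 0.216). Without mice 5 and 6 that r was 0.88. The main probe set of S100b had an unadjusted exact permutation p under 0.05 with 2 other scores. With the score of spiral ligament fibrocytes, whose brightest genes were Car3 and Coch, r was 0.85 (exact permutation p = 0.00330, adjusted p = 0.368). There rho was 0.90 (exact permutation p = 0.00456), and r was 0.89 without mice 1 and 3. With the score of stria vascularis and melanocytes, whose brightest genes were Dct and Cldn11, r was 0.89 (exact permutation p = 0.00627, adjusted p = 0.422). There rho was 0.83 (exact permutation p = 0.0154), and r was 0.57 without mice 1 and 7. Of the 8 genes of the stria score 6 were highest in mouse 1, while Cldn11 (4920) and Kcnj10 (4113) were lowest there. The second probe set of S100b gave r = 0.32 with the fibrocyte score (exact permutation p = 0.428; rho = 0.38, exact permutation p = 0.360; r = 0.88 without mice 1 and 3) and -0.16 with the stria score (exact permutation p = 0.728; rho = -0.12, exact permutation p = 0.793; r = 0.47 without mice 1 and 7). After quantile normalization the r of S100b was 0.02 with the fibrocyte score (exact permutation p = 0.961) and 0.76 with the stria score (exact permutation p = 0.0276).

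Brightness moved with these values. Of the 96 detected genes with a mean signal of at least 10000, a group that S100b and S100a1 belonged to, 90 were lowest in mouse 7, against 7.76% of all detected genes. The median r of S100b with the other genes of that group was 0.86, and with all detected genes it was -0.03. The nearest genes to S100b were Eef1a1, the translation elongation factor (r = 0.99, mean signal 11774), Nedd4, a ubiquitin ligase (r = 0.98), and Rnf187 (r = 0.98). Car3 (14542 ± 1119, SD, n = 8) and Coch (14226 ± 1333, SD, n = 8) were in the same bright group and were lowest in mouse 7 too. The part of brightness in the relations of S100b was not tested further than by the quantile normalization above.

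**Figure D4:**
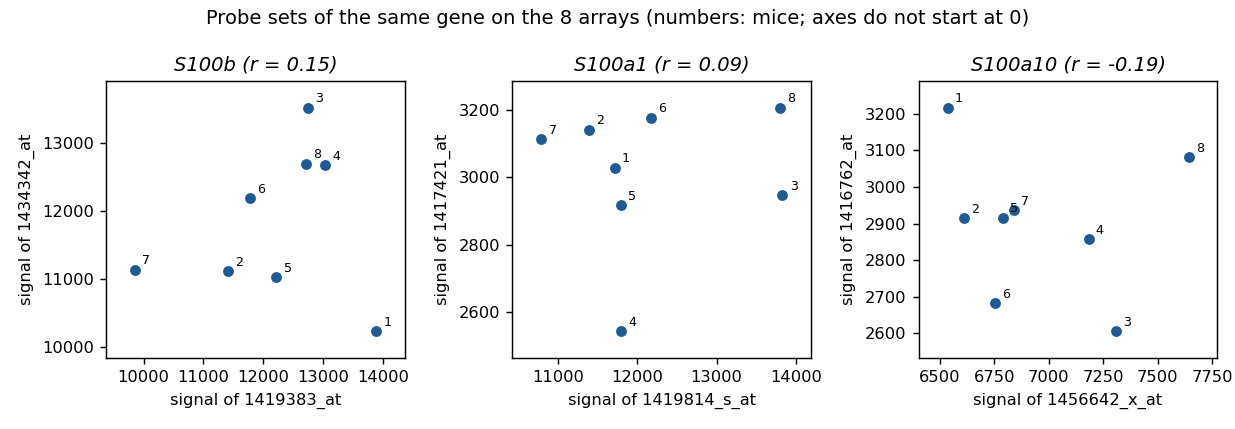
Signals of the second against the first detected probe set of S100b, S100a1 and S100a10, 1 point for each mouse. None of the 3 pairs lines up: r of the log2 signals is 0.15, 0.09 and -0.19.

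S100a1, known from heart and skeletal muscle and also from glia and neurons, was bright too. Its main probe set 1419814_s_at had a lowest signal of 10790 in mouse 7, a median of 11791 and a highest of 13831 in mouse 3, with mouse 8 next at 13797. The mean was 12159 ± 1096 (SD, n = 8), and mice 3 and 8 stood above the other 6, which reached at most 12170. A second probe set, 1417421_at, had a mean of 3009.6 ± 215 (SD, n = 8), with mouse 4 alone at the low end (2545, the next at 2917). The pair had r = 0.09 (one-sided exact permutation p = 0.469, adjusted p = 0.678; rho = 0.05, exact permutation p = 0.467), and -0.23 without mice 3 and 8. The nearest genes were Npc2, a cholesterol-binding protein of lysosomes (r = 0.97), Chmp5 (r = 0.95) and Myl12b, a myosin light chain (r = 0.95).

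S100a10, the annexin A2 partner, had the smallest SD of the members by its main probe set over all 8 mice. With the mean of all its probe sets, 1 of them below background, the SD was 0.23 in place of 0.10. S100a13 had the smallest SD, 0.07, without mouse 6, and S100b, 0.05, after quantile normalization. The main probe set of S100a10, 1416762_at, had signals of 2606 in mouse 3 at the low end, a median of 2915 and 3217 in mouse 1 at the high end, with a mean of 2901 ± 197 (SD, n = 8). In mice 1, 2, 7 and 8, the arrays with the lower background thresholds, this probe set lay at 2914 to 3217. In mice 3 to 6 it lay at 2606 to 2915.5. Whether the array background bears on this was not tested. A second detected probe set, 1456642_x_at, had a mean of 6959 ± 382 (SD, n = 8) and was lowest in mouse 1 and highest in mouse 8. It ran from 6536 to 7641 in mice 1, 2, 7 and 8 and from 6756 to 7310 in mice 3 to 6. The pair had r = -0.19 (one-sided exact permutation p = 0.673, adjusted p = 0.842; rho = -0.21, exact permutation p = 0.709), and -0.46 without mice 3 and 8. The sequence of an _x_at probe set can match other genes as well. Anxa2 itself had a mean of 8551 ± 654 (SD, n = 8), and its r with S100a10 was 0.25 (exact permutation p = 0.603, adjusted p = 0.894; rho = 0.12, exact permutation p = 0.793; r = -0.13 without mice 1 and 3). The genes nearest to S100a10 were Madd (r = 0.98), Shisa2 (r = 0.97) and Idnk (r = 0.95).

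Across the array, 4558 genes had 2 detected probe sets to set against each other, and 12.4% of them agreed at an adjusted 0.05. S100b, S100a1 and S100a10 were the members with such a pair, and 0 of the 3 agreed by the exact permutation test, nor did any at an unadjusted 0.05. An r at or below the highest of the 3 members was found in 37.3% of those genes. For these 3 genes the order of the mice is thus given for the probe set named and not for the gene.

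S100a13, which takes part in the release of growth factors such as Fgf1, had a lowest signal of 4674 in mouse 6, a median of 5587 and a highest of 6154 in mouse 3. Its mean was 5566 ± 453 (SD, n = 8), and mouse 6 was separated from the other 7, which lay between 5345 and 6154. Only 3 detected genes reached an r of 0.9 with S100a13, the fewest of the 9 members. They were 4933434E20Rik (r = 0.91), Rhbdl3 (r = 0.91) and Armh4 (r = 0.90), and without mice 3 and 6 these r values were 0.17, 0.38 and 0.59. With S100a1, the gene that shares the 204 bases printed above, r was 0.48 (exact permutation p = 0.239, adjusted p = 0.774; rho = 0.48, exact permutation p = 0.243), and it turned to -0.51 without mice 3 and 8. A common course of these neighbours across mice was not detectable with 8 animals.

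S100a4, a protein of motile fibroblasts and immune cells, was dim. Its lowest signal was 295 in mouse 4, its median 393 and its highest 476 in mouse 2, with a mean of 390.0 ± 66.0 (SD, n = 8). Mice 4 and 6 were low (295 and 309) and mice 1 and 2 were high (468 and 476). In mice 1, 2, 7 and 8, the arrays with the lower background thresholds, S100a4 lay at 395.8 to 476. In mice 3 to 6 it lay at 295 to 390.0. Whether the array background bears on this order was not tested. The nearest genes were AI661453 (r = 0.98), Fam229b (r = 0.97) and Ap3s2 (r = 0.96).

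S100a6, known from fibroblasts and epithelia, was set apart by 1 animal. Its signal was 2650.7 in mouse 5, while its range elsewhere was 1303 to 1749, with a median of 1568 and a mean of 1669 ± 425 (SD, n = 8). Mouse 5 was 1.74-fold above the mean of the others on the log2 scale, and 8.02% of all detected genes were highest in that animal. Without it the SD of S100a6 was 0.16 in place of 0.32. Several marker lists were highest in mouse 5 as well. Airway-type epithelium, a list added after the data had been seen, had a summed signal of 24289 against 1886 to 8285 in the other mice, with 13 of 14 genes highest in mouse 5 and 3 of 14 detected. Fast muscle summed to 15966 against 1107 to 2571, adipocytes to 9075 against 629 to 1747 and fibroblasts to 9779.6 against 6201 to 8159. Of the 8 measured fibroblast genes 4 were highest in mouse 5. The fibroblast score had r = 0.53 with S100a6 (exact permutation p = 0.189, adjusted p = 0.871). There rho was -0.12 (exact permutation p = 0.793), and r was -0.75 without mice 5 and 8. The nearest genes to S100a6 were Xylb (r = 0.98), Wdr35, a protein of transport in cilia (r = 0.98), and Nme5, a gene of motile cilia (r = 0.97), whose signal reached 2345 in mouse 5 from 387 in the lowest mouse. The part of these tissues in the signal of S100a6 was not tested.

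**Figure D5:**
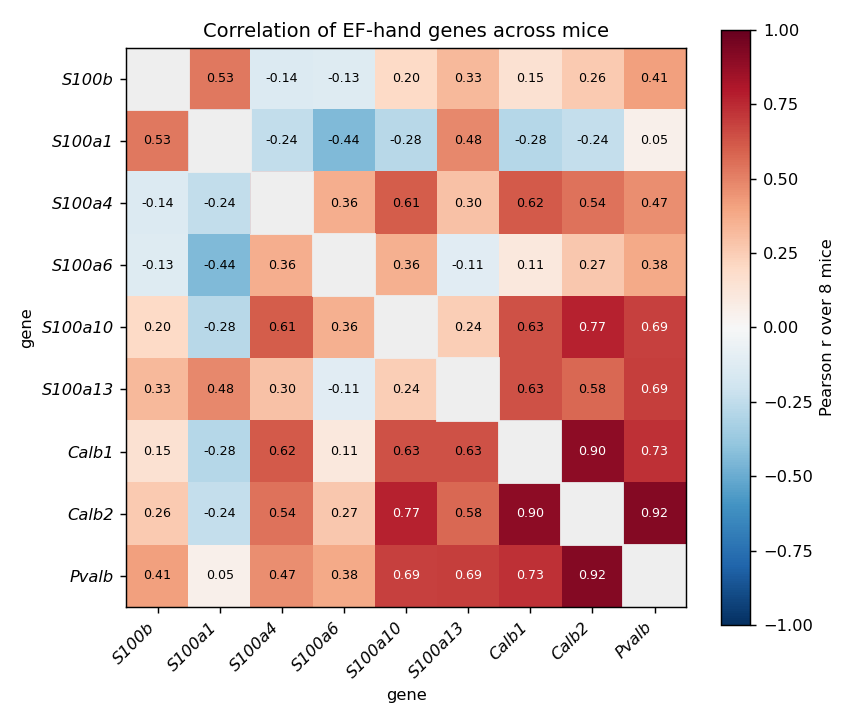
Pearson correlation over 8 mice for each of the 36 pairs of the 9 detected members, as colours from negative to positive. The highest values join Calb2 with Pvalb (0.92) and with Calb1 (0.90), and pairs of S100 members run from -0.44 to 0.61.

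Over the 9 members there were 36 pairs, 28 of them positive and 8 negative. After adjustment over all 99144 pairs of a member and a detected gene, none of the 36 passed by the exact permutation test (lowest adjusted p = 0.586) and 0% of all those pairs did. An unadjusted exact permutation p under 0.05 was found for 3 of the 36, against 6.68% of all pairs. Those were Calb1 with Calb2, Calb2 with Pvalb, and S100a10 with Calb2 (r = 0.77, exact permutation p = 0.0221, adjusted p = 0.682; rho = 0.60, exact permutation p = 0.132; r = 0.77 without mice 1 and 3). The last of these was 0.17 when all probe sets of S100a10 were averaged. That average includes 1439348_at, which passed the background on no array. Among the 15 pairs of S100 members r ran from -0.44 to 0.61, and none had an exact permutation p under 0.05 (lowest 0.107). The median r was 0.36 over the 36 pairs and 0.03 over all pairs of a member and a gene.

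The rest of the EF-hand family was read from a list of 59 genes. Of these 51 had a probe set of their own and 30 were detected (58.8%), close to the 60.6% of all genes. Their median SD was 0.19, and 6 of the 30 were lowest in mouse 6, against 12.2% of all detected genes. Of those 6 genes 5 were neuronal calcium sensors or their relatives. Vsnl1 (visinin-like protein) had a signal of 323 in mouse 6 and 830.1 to 1574 in the others, Ncs1 (neuronal calcium sensor) 219 against 303 to 482, and Kcnip4, a subunit of potassium channels, 102 against 147 to 296. Of the 25 measured genes of that class 10 were detected. All 8 genes of secretory pathway and matrix EF-hand proteins were detected, among them Sparc, a calcium-binding matrix protein, with a mean of 12070.2 ± 907 (SD, n = 8), and so were all 9 of the cytosolic EF-hand enzymes and adaptors.

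Other S100 genes included the most variable of the family. S100a8 and S100a9, which form calprotectin in neutrophils, ran from 528 to 9220.2 and from 1024 to 13758.5, lowest in mouse 7 and highest in mouse 3. The neutrophil markers Camp and Ngp were also lowest in mouse 7 (72.0 and 57.5), and the 9 measured genes of that list summed to 430.3 there and to 1246 to 7091 in the other mice. S100a16 had a mean of 1273 ± 61.1 (SD, n = 8). Only 3 of the 7 other S100 genes measured were detected.

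Partners of S100 proteins varied little between mice. Of 8 measured partners 7 were detected, and 0 of these 7 had an SD above the median of detected genes. Their mean signals were 3316 to 8551, and the median was not matched on brightness. Whether a low SD is particular to S100 partners was therefore not tested. The annexins Anxa1 (7329 ± 570.2, SD, n = 8) and Anxa5 (7959.8 ± 530.4, SD, n = 8), the large scaffold Ahnak (7271 ± 558, SD, n = 8) and the S100a4 target Myh9, a non-muscle myosin (6470.2 ± 463, SD, n = 8), were all bright. Fgf1, the growth factor that S100a13 helps to release, had a mean of 4373 ± 469 (SD, n = 8) and was lowest in mouse 6. Its r with S100a13 was 0.30 (exact permutation p = 0.470, adjusted p = 0.846; rho = 0.05, exact permutation p = 0.935; r = -0.15 without mice 3 and 6). Ager, the receptor for extracellular S100 proteins known as RAGE, passed the background on 1 of 8 arrays (37.9 ± 18.8, SD, n = 8) and was not detected.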

How the data were processed

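Total RNA of cochlear soft tissue was extracted with TRIZOL and a column kit, amplified with the Ovation system and labelled with biotin, per the labels' protocols. The deposited values are linear intensity values of probe sets, made with MAS5 according to the submitters' processing notes. Its version was not given in the sources used here. A mean trimmed by 2% at both ends was the same on all arrays in the deposited values. The number of arrays is among the limits on precision.

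The platform annotation gave 1 gene for 34945 of 45101 probe sets, several genes for 932 and none for 9224 (controls included). Entrez identifiers matched for 34741, and 0 symbols changed. The brightest probe set by mean stood for a gene, with _x_at ones only where there was no other, as log2 of the intensity (values under 1 set to 1). Background came from 122 genes. Correlations across mice were tested exactly over 40320 pairings, two-sided except for probe set agreement, with Benjamini-Hochberg adjustment over all genes tested. A marker score needed at least 4 detected genes, and a tested gene was left out of its score. Of 14 cell lists 11 had a score. The procedure was tested on simulated data. The calculations used Python 3.11.15, numpy 2.4.6, pandas 2.3.3 and scipy 1.17.1.

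The genes and lists were chosen with earlier results of these data known, among them the low neuronal signals of 1 mouse, and the airway-type list after seeing the values. Named genes are the members, the 3 detected genes nearest to each by r, the brightest and most variable of the related lists, and the 2 brightest genes of a score. Map1a, Mobp, Camp, Ngp and Bpifa1 are named beside them as markers. Alternatives were other background percentiles, a lower count of arrays, other scalings, an added constant of 32, averaged probe sets, rank correlation and leaving out each mouse.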

Additional observations from a re-analysis of the deposited data

Results flagged for a closer look

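Of 38 values of the 8 mice that were examined, 6 had an animal far from the rest, by the gap to its nearest neighbour as a share of the whole range (Dixon's ratio, at the 95% critical value for 8 samples). For values drawn at random chance gives about 1 in 20, but some of the 38 were named for their large SD, and 12.8% of all 11021 detected genes had such an animal. Among the members, Pvalb had a share of 0.568 for its lowest animal, mouse 6, S100a6 had 0.586 for its highest, mouse 5, and the second probe set of S100a1 had 0.591 for its lowest, mouse 4. The first probe set of S100a1 did not single out mouse 4, where its signal was 11792. Among the other genes, the calcium sensor Vsnl1 had a share of 0.596 with mouse 6 lowest, and Anxa5 had 0.562 with mouse 7 lowest. The score of supporting cells and tectorial membrane had 0.582 with mouse 2 highest, although it ran only from -0.05 to 0.10. Calb2 and Calb1, though lowest in mouse 6 as well, did not reach the critical share.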

How the results depend on the processing

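No member pair, member by score relation or probe set pair passed an adjusted 0.05 in any of the alternatives run. For member pairs and scores this could hardly be otherwise, so it says little about stability. The lowest exact p that 8 mice allow was 2.48e-05, and adjustment ran over 99144 or 121231 pairs. A relation could pass only if many others had a p about as low, and fewer mice raise that lowest p. All 9 members stayed detected except with the 99th percentile of background (7) and with the mean of a gene's probe sets (8). With the 99th percentile 3 members exceeded the median SD in place of 5, and without 1 mouse 4 to 5 did. Member pairs with an unadjusted exact permutation p under 0.05 numbered 1 with the mean of all probe sets in place of 3, and 2 to 8 without 1 mouse (8 without mouse 3 and 6 without mouse 4). Member by score relations at that level numbered 5 to 11 without 1 mouse in place of 10, with 5 without mouse 1. The r of Calb2 with the neuron score lay between 0.93 and 0.99 in all 17 alternatives, with adjusted p from 0.229 to 0.639.

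Signs turned as follows, and the cause was not tested. The r of S100b with the Schwann cell score was -0.17 with the mean of all probe sets, and -0.18 to 0.56 without 1 mouse (negative without mouse 1). The r of the S100a1 probe sets was -0.16 to 0.24 without 1 mouse, with -0.04 without mouse 4 and -0.16 without mouse 8. For S100a10 it was 0.18 with arrays scaled to 1 median and -0.69 to 0.14 without 1 mouse, with 0.14 without mouse 1 and 0.07 without mouse 3. For S100b it was -0.68 after quantile normalization and -0.076 to 0.68 without 1 mouse, negative without mouse 7. No paired analysis was possible because the study held 1 group. With 8 arrays and dim probe sets of Calb1 and S100a4, small differences between mice cannot be resolved.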
